A study of Saccharomyces cerevisiae with 6 samples.

Results

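The organelle syntaxins and vacuolar SNAREs of budding yeast were examined in a strain lacking VPS1 and in wild type. They were 10 genes chosen by name and organelle, with no measured value in the rule: UFE1 of the endoplasmic reticulum (ER), SED5 of the Golgi, TLG1 and TLG2 of the trans-Golgi network and early endosome, PEP12 of the late endosome, VAM3, VAM7 and NYV1 of the vacuole, and SSO1 and SSO2 of the plasma membrane. All 10 were among the 5449 yeast genes measured, each by 1 probe set. VPS1 encodes a large GTPase related to dynamin that serves membrane traffic to the vacuole. The wild type was strain BY4741 and the vps1Δ mutant was strain Y05072, both grown at 30 degrees in supplemented minimal medium, and no treatment is labelled. Each strain was represented by 3 Affymetrix arrays from cultures that the series describes as independent. The deletion was represented by this 1 strain, so loss of VPS1 and any other difference between the strains cannot be told apart.

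SNARE proteins drive the fusion of a vesicle with its target membrane. A bundle of 4 SNARE helices forms between the membranes and pulls them together, and 1 helix comes from each of the classes Qa, Qb, Qc and R, named after the residue in the central layer of the bundle. Syntaxins are the Qa members and mark the target organelle. Among the 10 genes, UFE1, SED5, TLG2, PEP12, VAM3, SSO1 and SSO2 encode Qa-SNAREs, TLG1 and VAM7 encode Qc-SNAREs, and NYV1 encodes the R-SNARE of the vacuole. PEP12 and VAM3 act on consecutive steps of the pathway that carries hydrolases from the Golgi through the late endosome to the vacuole, a route for which VPS1 is also needed.

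The labels were checked against the deleted gene. VPS1 lay between 9.95 and 10.32 on the wild type arrays (log2) and between 2.23 and 2.54 on the deletion arrays, below background, at least 91.5-fold lower. Of the auxotrophic marker loci of BY4741, neither strain had URA3 or MET17 signal above background, while HIS3 was well above it (10.78 and 10.63 in wild type and deletion strain). LEU2 was at 4.57 and 3.64, a difference of -0.93 (limma adjusted p = 0.00485). Its signal was near background, with 3.79, 3.49 and 3.65 on the deletion arrays, and above it on 5 of the 6 arrays. All 7 a-specific mating genes were above background on every array, with strain means from 6.97 (ASG7, deletion strain) to 13.27 (MFA2, wild type). The 4 alpha-specific genes were also above it on every array. Their strain means ran from 3.95 (MF(ALPHA)1, deletion strain), close to background, to 8.65 (SAG1, deletion strain). Levels of both sets were not equal between strains. MFA2, STE2, BAR1, AGA2 and ASG7, which are a-specific, were lower in the deletion strain by limma (-1.37 to -0.47, adjusted p under 0.05). MFA1 and STE6 were lower too (-0.32 and -0.41) but did not pass. Of the alpha-specific genes STE3 alone passed, higher by 0.54 (limma adjusted p = 0.0466). The deposited deletion arrays were higher than those of wild type by a median of 0.51 (log2) over all genes. Every value below is therefore on a quantile scale, where all 6 arrays share 1 distribution and the median difference over genes was -0.04. A shift of most genes together is removed by this scaling.

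Of the 10 genes, PEP12 alone passed the test for single genes (limma, Benjamini-Hochberg over all genes, adjusted p under 0.05). It rose 2.20-fold in the deletion strain, and the other 9 did not pass. Over all genes 13.0% passed, 6.77% higher and 6.28% lower, so 1 of 10 was near the background share. An unadjusted limma p under 0.05 was reached by 5 of the 10, against 28.9% of all genes. The differences of the 10 genes ran from -0.49 for VAM7 to 1.14 for PEP12 (log2), with a median of 0.11. Of the 10, 8 were within 0.3 of 0 on the log2 scale (80.0%), against 71.4% of all genes.

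The labels give replicate numbers 1 to 3 in both strains, and arrays of the same number deviated together. With the replicate number as a block, 5 of the 10 genes passed, PEP12, NYV1 and SSO1 higher and VAM3 and VAM7 lower, against 30.8% of all genes in this fit, 14.4% higher and 16.4% lower. The 5 included all 3 vacuolar SNAREs, NYV1 higher and VAM3 and VAM7 lower. On the values as deposited VAM3 and VAM7 were above wild type too, by less than the median gene, and 8 of the 10 genes passed, all higher, where 77.0% of all genes passed, 76.0% higher and 0.954% lower. All 3 same-numbered pairs were higher in the deletion strain for 5 of the 10 genes and lower for 2, against 25.4% and 35.2% of all genes, 60.6% together.

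**Figure D1:**
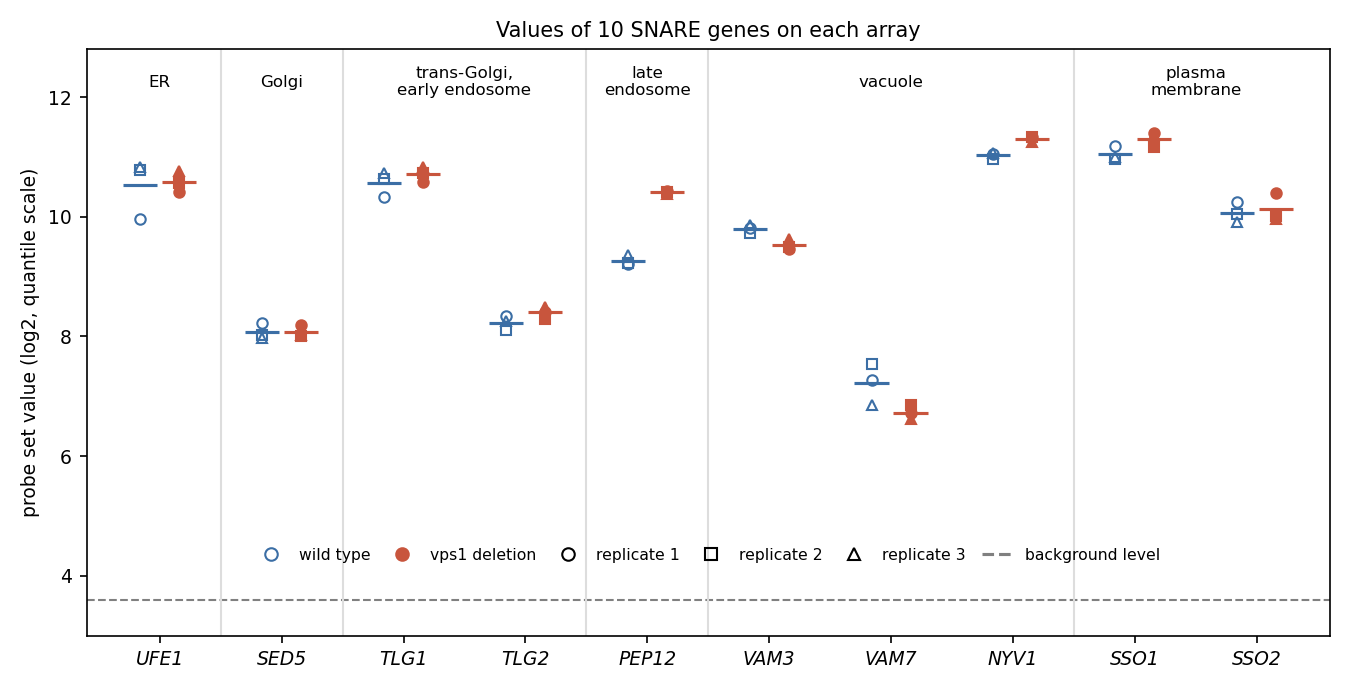
Probe set values (log2, quantile scale) of the 10 SNARE genes on each array, ordered by organelle. Open blue symbols are wild type, filled red symbols the vps1 deletion, marker shape gives the replicate number, horizontal bars are means of 3 arrays, and the dashed line is the highest background level of an array (3.59). The strains are clearly apart for PEP12, at 9.27 and 10.41, and lie close together for SED5, at 8.07 and 8.08.

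PEP12, the syntaxin of the late endosome, stood at 9.21, 9.23 and 9.37 (log2) on wild type arrays 1, 2 and 3, and at 10.44, 10.41 and 10.38 on deletion arrays 1, 2 and 3. Every deletion array was above every wild type array, and the spread within each strain was small (SD 0.09 and 0.03, n = 3 each). The difference was 1.14 ± 0.09 (log2, SE; 95% interval 0.93 to 1.35; limma adjusted p = 3.50e-04), a fold of 2.20 with an interval of 1.91 to 2.55. It was 1.23, 1.17 and 1.02 within replicate numbers 1, 2 and 3. Of all genes, 1.58% had a difference at least as high, and 2.07% one at least as large in either direction. More cells with PEP12 transcript and more transcript per cell cannot be told apart in RNA of whole cultures.

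The SNAREs that pair with Pep12 did not pass the test. VTI1 encodes the Qb-SNARE of several endosomal and vacuolar complexes and differed by 0.28 ± 0.15 (log2, SE; limma adjusted p = 0.274), with values of 10.03, 9.56 and 9.69 on the wild type arrays and 10.18, 9.83 and 10.10 on the deletion arrays. The groups overlapped, but each deletion array was above the wild type array of the same number, and VTI1 passed with the block (adjusted p = 0.0429). SYN8, the endosomal Qc-SNARE, differed by -0.05 ± 0.11 (95% interval -0.29 to 0.20), and TLG1, which can take the same position, by 0.15 ± 0.13. YKT6, an R-SNARE used at several organelles, differed by 0.21 ± 0.19, with its lowest value on wild type array 1 (12.24) and all other arrays between 12.75 and 13.00. The interval of YKT6 was wider than that of SYN8 and reached 0.65.

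The genes whose values followed those of PEP12 most closely were PMT3, CHS1 and FLC2. They were ranked by the root mean square distance to PEP12 over the 6 arrays. Each gene was taken relative to its own wild type mean. The 5390 candidates had a mean above 3.50 (log2) in at least 1 strain. That level is the 95th percentile of the means of the background probe sets. Such a ranking picks genes with a rise near that of PEP12, so their rises are no separate result. PMT3, a protein O-mannosyltransferase, was at a distance of 0.0726 (log2) and rose by 1.11 ± 0.10. CHS1, a chitin synthase, was at 0.0739 and rose by 1.05 ± 0.10, and FLC2, a membrane protein proposed to carry FAD into the ER, was at 0.0814 and rose by 1.10 ± 0.09. The genes on either side of PEP12 on chromosome XV, looked up after its value was seen, did not pass. SHE4, a myosin chaperone transcribed away from PEP12 on the other strand, differed by 0.43 ± 0.14 (limma adjusted p = 0.0891, and 0.00915 with the replicate block). CYC2, a mitochondrial protein needed for cytochrome c, differed by -0.21 ± 0.12 (adjusted p = 0.291).

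The 3 vacuolar SNAREs differed in sign between each other, and none passed without the block. Vam3, Vam7 and Nyv1 form the complex that fuses vacuoles with each other, together with Vti1. VAM3, the vacuolar syntaxin, was at 9.81, 9.73 and 9.86 (log2) on the wild type arrays and at 9.46, 9.49 and 9.63 on the deletion arrays. All deletion values were below all wild type values, with a difference of -0.27 ± 0.09 (95% interval -0.49 to -0.06; limma adjusted p = 0.0977, and 0.0345 with the replicate block). NYV1, the R-SNARE, was at 11.06, 10.96 and 11.06 on the wild type arrays and at 11.33, 11.33 and 11.26 on the deletion arrays. Here all deletion values were above all wild type values, by 0.28 ± 0.09 (interval 0.08 to 0.48; adjusted p = 0.0775, and 0.0350 with the block). Groups that do not overlap were found in 33.9% of all genes, 15.0% higher and 19.0% lower.

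VAM7 encodes a Qc-SNARE without a membrane anchor, which reaches the vacuole through a lipid-binding PX domain. It had the lowest difference of the 10 genes and a wide spread in wild type. Its values were 7.27, 7.54 and 6.85 (log2) on the wild type arrays and 6.72, 6.85 and 6.62 on the deletion arrays. The third wild type array lay at the level of the second deletion array, so the groups overlapped. The difference was -0.49 ± 0.17 (95% interval -0.90 to -0.08; limma adjusted p = 0.110). With the replicate block VAM7 passed (adjusted p = 0.0134), and it also passed when wild type replicate 3 was left out, where the difference was -0.67 (adjusted p = 0.0297). On the deposited values VAM3 was above wild type by 0.28 (adjusted p = 0.0279) and VAM7 by 0.13 (adjusted p = 0.552), which is 0.23 and 0.38 below the median gene.

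**Figure D2:**
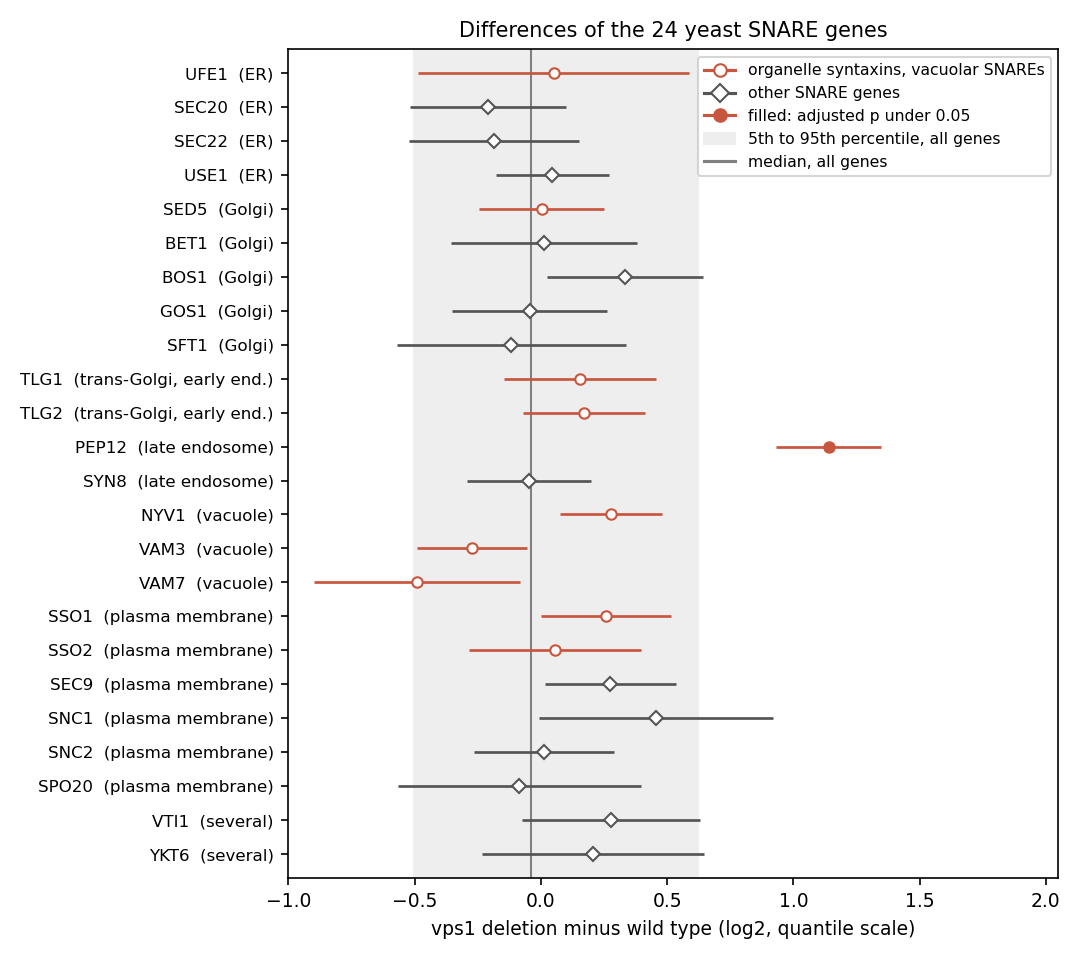
Difference between strains (vps1 deletion minus wild type, log2, quantile scale) of all 24 yeast SNARE genes with 95% intervals from limma, grouped by organelle. Circles are the 10 organelle syntaxins and vacuolar SNAREs, diamonds the other 14 SNARE genes, filled symbols passed the test, the grey band runs from the 5th to the 95th percentile of all genes (-0.50 to 0.62), and the vertical line is their median. PEP12 at 1.14 is the sole filled symbol and the sole one to the right of the band.

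TLG1 and TLG2 act together on membranes that return from the early endosome to the trans-Golgi network. TLG2, the Qa-SNARE, was at 8.34, 8.10 and 8.25 (log2) in wild type and at 8.41, 8.30 and 8.49 without VPS1, a difference of 0.17 ± 0.10 (95% interval -0.07 to 0.41; limma adjusted p = 0.327). TLG1, the Qc-SNARE, was at 10.33, 10.62 and 10.72 against 10.58, 10.73 and 10.83, a difference of 0.15 ± 0.13 (interval -0.15 to 0.46; adjusted p = 0.485). Both overlapped between strains, and both were higher in the deletion strain within each of the 3 replicate numbers.

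Golgi and ER syntaxins showed no difference beyond their spread. SED5, the Qa-SNARE for traffic from the ER to the Golgi and within it, was at 8.22, 8.03 and 7.97 (log2) in wild type and at 8.19, 8.01 and 8.03 without VPS1. Its difference was 0.00 ± 0.11, with a 95% interval of -0.24 to 0.25. UFE1, the Qa-SNARE that receives vesicles returning to the ER, was at 9.97, 10.78 and 10.83 on the wild type arrays and at 10.41, 10.56 and 10.76 on the deletion arrays. Its first wild type array lay well below all others, the SD in wild type was 0.48, and the difference of 0.05 ± 0.23 had an interval of -0.48 to 0.59. Without wild type replicate 1 it was -0.23 (limma adjusted p = 0.261). A change of UFE1 would have had to reach 0.86 to pass at this spread, against 0.32 for NYV1 and 0.39 for SED5.

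SSO1 and SSO2 are paralogous genes that encode the syntaxins of the plasma membrane, where secretory vesicles fuse. SSO1 was at 11.19, 10.96 and 11.00 (log2) on the wild type arrays and at 11.39, 11.16 and 11.37 on the deletion arrays. The lowest deletion array was just below the highest wild type array, and the difference was 0.26 ± 0.11 (95% interval 0.00 to 0.51; limma adjusted p = 0.172, and 0.0471 with the replicate block). SSO2 was at 10.24, 10.05 and 9.91 against 10.40, 10.01 and 9.97, a difference of 0.06 ± 0.15 (interval -0.28 to 0.40; adjusted p = 0.845). The first array of each strain was the highest for SSO2, and the 3 pairs did not share a direction. How far each probe set detects the other gene of the pair was not tested.

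**Figure D3:**
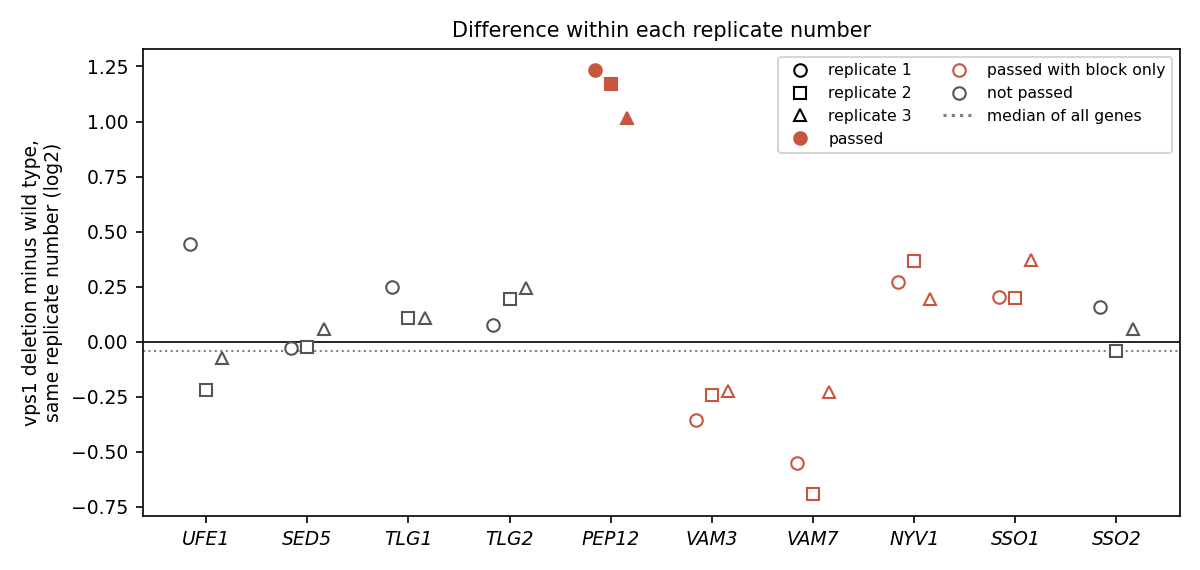
Difference between the vps1 deletion array and the wild type array of the same replicate number (log2, quantile scale) for the 10 SNARE genes, with marker shape for the number. Filled red symbols passed the test, open red symbols passed only in the fit with the block, grey symbols did not pass, and the dotted line is the median of all genes. PEP12 lies between 1.02 and 1.23, VAM7 between -0.69 and -0.23, and UFE1 has 1 pair at 0.45 and the other pairs below 0.

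Whether partner genes differed from each other was tested within arrays, for 4 pairs, with an exact 2-sided permutation test over 3 against 3 arrays, in which 0.1 is the smallest p possible. PEP12 minus VAM3, the syntaxins of the late endosome and the vacuole, was -0.53 ± 0.07 in wild type and 0.88 ± 0.12 without VPS1 (log2, SD, n = 3 each). The strains differed by 1.41 and did not overlap (exact p = 0.1, 0.2 adjusted over the 4 pairs). VAM3 minus NYV1, the Qa- and R-SNARE of the vacuole, was -1.23 ± 0.02 and -1.78 ± 0.13, a difference of -0.55, also without overlap (exact p = 0.1, adjusted 0.2). In both pairs VAM3 lay wholly below wild type and its partner wholly above it. The lack of overlap and the exact p of 0.1 therefore followed from the values of the single genes. SSO1 minus SSO2 differed by 0.20 (exact p = 0.2, adjusted 0.267) and TLG1 minus TLG2 by -0.02 (exact p = 0.9, adjusted 0.9). This test does not use the replicate numbers. Within numbers 1, 2 and 3 the differences were 1.59, 1.41 and 1.24 for PEP12 minus VAM3, and -0.63, -0.61 and -0.42 for VAM3 minus NYV1. For SSO1 minus SSO2 they were 0.05, 0.24 and 0.31, all of 1 sign, and for TLG1 minus TLG2 they were 0.17, -0.08 and -0.13. These differences within an array do not depend on how the arrays were scaled to each other by a constant, and as deposited they were 1.41, -0.54, 0.19 and -0.02.

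Of the 10 genes, 4 lie on chromosome XV in the S288C gene table, TLG2, PEP12, UFE1 and VAM3, and these 4 included both the highest difference and 1 of the 2 below 0. By class, the 7 Qa genes ran from -0.27 to 1.14 and the Qc genes TLG1 and VAM7 were at 0.15 and -0.49. Every value of the 10 genes was above background, between 6.62 and 11.39 (log2). The array also carries probe sets of fission yeast, and 5 of them bear the names of these genes (pep12, sed5, tlg1, tlg2 and ufe1). Those 5 lay between 2.33 and 2.96, below background on every array. They belong to the probe sets that set the background level, so this is no separate check of it.

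The other 14 SNARE genes gave no call without the block, where 2 had an unadjusted limma p under 0.05, below the 28.9% of all genes. Their differences ran from -0.21 for SEC20 to 0.46 for SNC1 (log2), with a median of 0.01, and the median size was 0.15 against 0.18 over all genes. With the replicate number as a block 30.8% of all genes passed, 14.4% higher and 16.4% lower. Near that share, 4 of the 14 passed, all higher: SNC1 (0.46 ± 0.09, adjusted p = 0.0120), an R-SNARE of secretory vesicles, BOS1 (0.33 ± 0.09, 0.0274), of vesicles from the ER to the Golgi, VTI1 as given above, and SEC9 (0.28 ± 0.09, 0.0483), the partner of Sso1 and Sso2 at the plasma membrane. SNC2, the close relative of SNC1, differed by 0.01 ± 0.12 (95% interval -0.26 to 0.29). SPO20, the sporulation counterpart of SEC9, was near background, with means of 4.13 and 4.05. ER partners of Ufe1 were not called in either fit, with USE1 at 0.05 ± 0.10, SEC20 at -0.21 ± 0.13 and SEC22 at -0.18 ± 0.14.

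Among 13 regulators of SNAREs, 2 rose and none fell, near the 13.0% of all genes that passed (6.77% higher and 6.28% lower). Their median was 0.16 (log2), and 4 had an unadjusted limma p under 0.05, close to the 28.9% of all genes. SRO77, which binds Sec9 as its paralogue SRO7 does, was at 6.94, 7.02 and 6.87 on the wild type arrays and at 8.75, 9.07 and 8.34 on the deletion arrays, all above wild type. It rose by 1.78 ± 0.18 (limma adjusted p = 8.31e-04), while SRO7 differed by -0.07 ± 0.10 (95% interval -0.30 to 0.17). BTN2, whose product binds endosomal SNAREs in retrieval from the late endosome to the Golgi, was at 8.93, 8.82 and 8.68 on the wild type arrays and at 10.50, 10.29 and 10.64 on the deletion arrays. The groups were far apart, and BTN2 rose by 1.67 ± 0.12 (adjusted p = 2.69e-04). The Sec1/Munc18 proteins, which clasp syntaxins, were not called: VPS45, for Tlg2 and Pep12, differed by 0.16 ± 0.09, VPS33, for Vam3, by -0.01 ± 0.11, SLY1, for Sed5 and Ufe1, by 0.29 ± 0.13, and SEC1, for Sso1 and Sso2, by 0.13 ± 0.11. SEC17 and SEC18, which take SNARE bundles apart after fusion, differed by 0.01 ± 0.09 and 0.19 ± 0.10. Against 30.8% of all genes with the block (14.4% higher and 16.4% lower), 5 of the 13 passed, all higher. Beside SRO77 and BTN2 they were SLY1 (adjusted p = 0.0272), MSO1, a partner of Sec1 (0.30 ± 0.08, 0.0269), and PBI2, a proteinase inhibitor that takes part in vacuole fusion (0.64 ± 0.12, 0.0074).

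Tethering complexes hold a vesicle at its target before SNAREs engage. Over all genes 13.0% passed, 6.77% higher and 6.28% lower. Near that share, 3 of 31 genes of the Dsl1, COG, GARP, CORVET, HOPS and exocyst complexes rose and none fell, with a median of 0.08 (log2). They were COG8 (0.36 ± 0.09, limma adjusted p = 0.0408) and COG7 (0.47 ± 0.12, 0.0410), of the Golgi complex COG, and VAM6 (0.36 ± 0.10, 0.0494), a HOPS subunit also known as VPS39. All 3 were close to the threshold, and the count was 0 to 2 when any 1 array was left out. Without wild type replicate 1 none of these 3 passed and the 1 gene called was VPS16, a lower one (-0.54 ± 0.14, adjusted p = 0.0427). Without wild type replicate 3 COG7 and VAM6 passed, both higher, and without wild type replicate 2 or any of the 3 deletion arrays the count was 0. With the block 8 passed, 6 higher and 2 lower, where 30.8% of all genes passed, 14.4% higher and 16.4% lower. Beside COG7, COG8 and VAM6 the higher genes were VPS51 of GARP (0.61 ± 0.13, adjusted p = 0.0127), TIP20 of Dsl1 (0.46 ± 0.11, 0.0183) and SEC8 of the exocyst (0.36 ± 0.10, 0.0307). The lower genes were VPS16, which HOPS and CORVET share (-0.42 ± 0.09, 0.0138), and SEC39 of Dsl1 (-0.27 ± 0.08, 0.0407). VPS33 was counted both among these 31 genes and among the regulators.

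**Figure D4:**
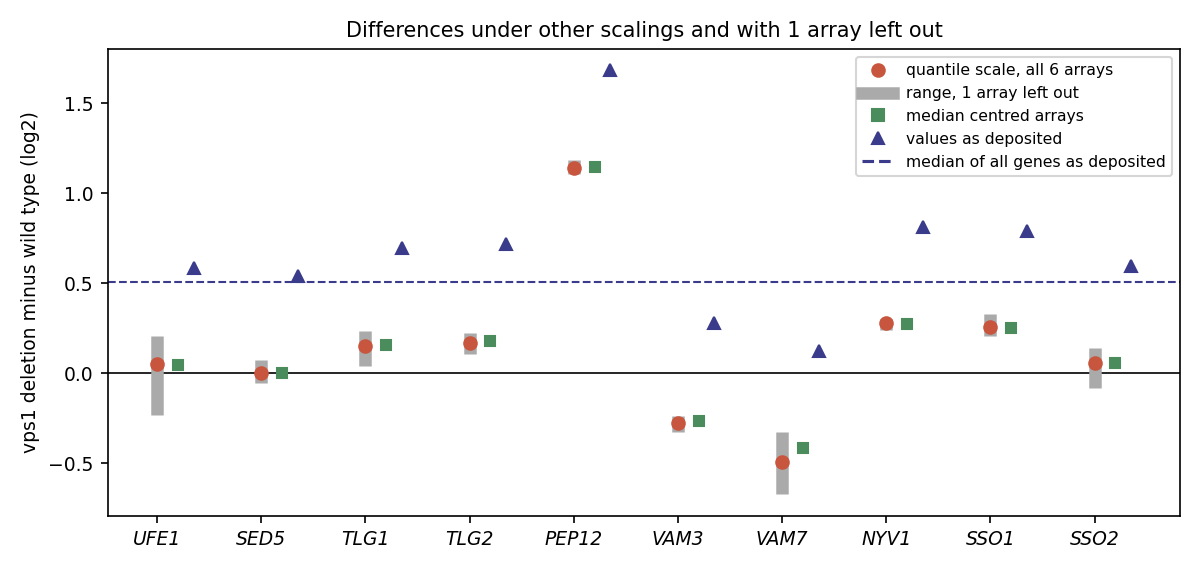
Difference between strains (log2) of the 10 SNARE genes on the quantile scale (circles), with arrays centred on their median (squares) and as deposited (triangles), with the range over fits that leave out 1 array (grey bars). The dashed line is the median of all genes as deposited (0.51). PEP12 stays between 1.11 and 1.18 with any 1 array left out, and VAM3 and VAM7 are above 0 as deposited but below the dashed line.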

How the data were processed

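Total RNA was measured on Affymetrix yeast arrays, per the labels' protocols from 100 ng of total RNA, with 3 arrays per strain. The deposited values are log2, 1 per probe set and array. GCOS, RMA and limma are named per the submitters' processing notes, without a version or a role, and the sources used here do not give how arrays were scaled. Arrays have no read depth, and their number limits the precision.

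All 10928 probe sets were quantile normalized over the 6 arrays. The platform annotation paired 5498 probe sets with a gene of the S288C R64 table by gene identifier, and the highest-mean probe set per gene left 5449 genes. Background was the 95th percentile, per array, of 1746 named probe sets whose gene identifier is not in that table (3.53 to 3.59). They include the fission yeast probe sets named above. Differences, vps1 deletion minus wild type, were tested with limma 3.58.1 (lmFit and eBayes, 2-sided, R 4.3.3). The fit was first run on simulated data with noise drawn independently for each array. Such data lack the shared deviations of same-numbered arrays and cannot show their effect on the fit. P-values were adjusted over all genes by Benjamini-Hochberg, with a threshold of 0.05. An interval is the 95% interval of limma, not adjusted. Members and lists were chosen with earlier results of these data known.

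Deviations of same-numbered arrays from their strain means correlated over genes at 0.67, 0.65 and 0.29, all above 0.1. The main fit did not use the replicate numbers, and calls, SE, intervals and adjusted p are from it unless the block is named. For this reason the fit with the replicate number as a block is given beside it where it changes a call. All 10 genes are named. Of other lists, genes that passed, up to 4 per list with the smallest p, and complex partners of PEP12 are named, and other SNARE, regulator and tether genes named were chosen after their values were seen.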

Additional observations from a re-analysis of the deposited data

How the results depend on the processing

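PEP12 rose in all 13 alternatives run (other scalings, the replicate block, a filter on dim probe sets, a trended robust prior, probe set means and leaving out each array), by 1.11 to 1.68 (log2), with limma adjusted p from 2.58e-05 to 0.00315. With the replicate block 1676 genes passed (30.8%) in place of 711 (13.0%), and 5 of the 10 SNARE genes, 4 of the other 14, 5 of the 13 regulators and 8 of the 31 tether genes. All 711 were among the 1676, and every array correlated best with its own number. Apart from VAM3, VAM7, NYV1 and SSO1, the block changed no call among the 10. As deposited 4194 genes passed, 4142 higher and 52 lower against 369 and 342, with 8, 12, 13 and 29 in the 4 lists, all higher, where VAM3 turned to 0.28 and VAM7 to 0.13. That scale carries the median shift of 0.51. With 1 array left out the counts were 322 to 787 genes, 1 to 2 of the 10, 0 of the other 14, 2 to 3 regulators and 0 to 2 tether genes. Near 0, the sign turned in some of these fits: UFE1 ran from -0.23 to 0.21 (-0.04 without vps1 deletion replicate 3), SED5 from -0.054 to 0.0735 (-0.0189 and -0.0477 in the other fits below 0), SSO2 from -0.0804 to 0.14 (-0.019 without wild type replicate 3) and TLG1 minus TLG2 from -0.18 to 0.0811 (0.0539 and 0.0614 in 2 further fits). The cause was not tested. Of 130 repeats of the 10 differences, 110 kept sign and side of the threshold, 12 newly passed and 9 turned sign, with VAM3 as deposited in both counts. Signal close to background limits SPO20 alone of the SNAREs.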
